A study of Mus musculus with 10 samples.

Results

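A set of 10 genes of fibroblast growth factor (FGF) signalling were followed through the binding profiles of HEB and SMAD2/3 in mouse embryonic stem cells (ESCs) and in endoderm derived from them. They were the ligands Fgf4, Fgf5 and Fgf8, the receptors Fgfr1 and Fgfr2, the feedback inhibitors Spry2, Spry4 and Dusp6, and the ETS transcription factors Etv4 and Etv5. The genes were chosen by name, and every enriched region that the authors list for one of them was taken. This gave 10 of the 10730 genes named in the 6 region lists, and 113 of 78263 region entries.

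Chromatin immunoprecipitation followed by sequencing (ChIP-seq) had been done on the CGR8 mouse ESC line, at passages between 18 and 25 and without feeders, in medium with serum and LIF. Endoderm was derived with 100 ng/ml Activin A, a ligand of the TGF-beta family, given from day 2, with chromatin taken at day 4. SB431542 (SB) inhibits the type I receptor kinases for activin, Nodal and TGF-beta and was used at 10 µM, for 24 h in ESCs and for 48 h in differentiating cells, although the labels are ambiguous on its timing relative to Activin A. Of the 6 groups, those of differentiation were SMAD2/3 in untreated endoderm (Endoderm SMAD2/3), HEB in SB-treated differentiating cells (Endoderm+SB HEB) and HEB in untreated endoderm (Endoderm HEB). Those of ESCs were SMAD2/3 in untreated ESCs (ESC SMAD2/3), HEB in SB-treated ESCs (ESC+SB HEB) and HEB in untreated ESCs (ESC HEB). SMAD2/3 was not profiled with SB, and all cells came from the 1 line. Each group had 1 ChIP library, so the values below compare single libraries, no replicate spread could be measured and no p-value was computed.

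FGFs bind receptor tyrosine kinases, and in early mouse cells the signal runs mainly through RAS to the kinase ERK. ERK activity induces its own brakes, among them the Sprouty proteins and the phosphatase DUSP6, and induces ETS factors such as ETV4 and ETV5, so these genes are widely read as targets of the pathway. Fgf4 is made by pluripotent cells and is needed for them to leave the naive state, Fgf5 marks the formative epiblast, and Fgf8 is expressed in the primitive streak from which endoderm arises. HEB, encoded by Tcf12, belongs to the E proteins, basic helix-loop-helix factors that bind E-boxes (CANNTG), and SMAD2 and SMAD3 carry activin and Nodal signals to DNA.

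The promoter sequences of 6 of the 10 genes could be read from RefSeq (GRCm38.p6), in 7 windows of 300 bases that run from 250 bases before to 50 bases after a transcript's start. A window of each is shown because all 6 genes had a region at or near their 5′ end in at least 1 list. They lie at chr7:144861136-144861435 (plus strand, Fgf4), chr5:98253934-98254233 (plus strand, Fgf5), chr7:130266759-130267058 (minus strand, Fgfr2), chr14:105896770-105897069 (minus strand, Spry2), chr10:99262981-99263280 (plus strand, Dusp6) and chr16:22439521-22439820 (minus strand, 1 of 2 Etv5 windows). Capitals mark E-boxes of the form CANNTG and the SMAD motif GGCGCC, on either strand.
Fgf4 promoter: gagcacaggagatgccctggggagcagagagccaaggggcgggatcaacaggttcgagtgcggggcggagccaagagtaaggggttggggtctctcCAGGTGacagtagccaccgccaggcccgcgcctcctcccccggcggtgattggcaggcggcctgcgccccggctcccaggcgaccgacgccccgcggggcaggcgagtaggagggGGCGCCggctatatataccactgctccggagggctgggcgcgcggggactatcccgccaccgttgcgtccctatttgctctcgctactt
Fgf5 promoter: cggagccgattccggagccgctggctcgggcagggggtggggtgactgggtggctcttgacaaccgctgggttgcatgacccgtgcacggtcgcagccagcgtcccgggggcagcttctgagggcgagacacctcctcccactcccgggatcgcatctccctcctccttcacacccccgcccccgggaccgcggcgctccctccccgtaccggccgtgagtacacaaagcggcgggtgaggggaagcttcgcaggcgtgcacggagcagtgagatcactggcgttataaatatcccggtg
Fgfr2 promoter: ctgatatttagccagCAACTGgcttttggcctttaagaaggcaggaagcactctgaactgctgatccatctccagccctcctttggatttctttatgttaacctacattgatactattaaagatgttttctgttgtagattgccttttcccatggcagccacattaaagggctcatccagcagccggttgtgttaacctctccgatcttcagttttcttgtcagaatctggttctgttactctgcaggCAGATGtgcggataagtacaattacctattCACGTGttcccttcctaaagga
Spry2 promoter: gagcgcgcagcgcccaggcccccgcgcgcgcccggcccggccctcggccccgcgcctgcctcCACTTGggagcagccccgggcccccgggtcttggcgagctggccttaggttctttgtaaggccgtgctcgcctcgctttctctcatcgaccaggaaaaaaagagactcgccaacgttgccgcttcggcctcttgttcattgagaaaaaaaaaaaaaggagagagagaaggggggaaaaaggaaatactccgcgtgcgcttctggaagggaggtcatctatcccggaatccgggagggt
Dusp6 promoter: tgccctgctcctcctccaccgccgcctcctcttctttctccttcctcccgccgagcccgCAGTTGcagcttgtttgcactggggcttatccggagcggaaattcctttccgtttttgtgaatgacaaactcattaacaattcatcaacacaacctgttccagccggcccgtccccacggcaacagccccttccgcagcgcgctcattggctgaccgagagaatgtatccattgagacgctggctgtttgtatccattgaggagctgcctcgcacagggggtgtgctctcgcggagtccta
Etv5 promoter: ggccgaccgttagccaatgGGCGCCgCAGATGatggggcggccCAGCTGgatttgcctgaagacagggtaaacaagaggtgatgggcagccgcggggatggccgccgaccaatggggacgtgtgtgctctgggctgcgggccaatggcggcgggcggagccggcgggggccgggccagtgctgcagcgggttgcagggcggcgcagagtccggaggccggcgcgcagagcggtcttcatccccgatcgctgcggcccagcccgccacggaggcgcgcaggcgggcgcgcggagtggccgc

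Counted from the transcript's start, the Fgf4 window held the E-box CAGGTG at position -154 and GGCGCC at -39. The Etv5 window shown held CAGCTG at -207, CAGATG at -224 and GGCGCC at -231. Dusp6 and Spry2 had 1 E-box each, CAGTTG at -191 and CACTTG at -188. Fgfr2 had 3, CAACTG at -235, CAGATG at -2 and CACGTG at 29, the most of the 7 windows. Neither an E-box nor a SMAD motif was found in the Fgf5 window or in the other Etv5 window, chr16:22438319-22438618. Of 32851 RefSeq promoter windows of the same length, 72.3% held CANNTG on either strand, and 32.9% held its subset of CAGCTG, or CAGGTG and its other strand, which reads CACCTG. The SMAD motif CAGAC, which reads GTCTG on the other strand, was in 49.6% of windows, the SMAD palindrome GTCTAGAC in 0.213% and GGCGCC in 11.9%. The FOXH1 motif AATCCACA, which reads TGTGGATT on the other strand, was in 0.855%. Within the 7 windows the CAGAC, palindrome and FOXH1 searches found no match. Every match of the E-box subset is also a CANNTG match. Region sequences themselves were not read, since the deposited regions are on mm9, and the windows were not placed on them.

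Most of the 10 genes were listed with a region in most libraries, where all genes were listed less often. Endoderm SMAD2/3 regions were listed for 7 of the 10 genes, against 23.1% of 21900 protein-coding genes. Endoderm+SB HEB regions were listed for 5 of 10, against 23% of all, and Endoderm HEB regions for 7 of 10, against 24.9%. In ESCs, SMAD2/3 regions were listed for 6 of 10, against 7.32%. ESC+SB HEB and ESC HEB regions were each listed for 9 of 10, against 29.9% and 24.1%. Among the 15483 protein-coding genes whose RefSeq lengths fall within the range of the 10 genes, 3860 to 104358 bp, the shares were 23.6% in Endoderm SMAD2/3, 23.7% in Endoderm+SB HEB, 24.1% in Endoderm HEB, 7.14% in ESC SMAD2/3, 32.1% in ESC+SB HEB and 24.7% in ESC HEB. With the lists cut to the length of the shortest, the counts were 5 of 10 in Endoderm SMAD2/3, against 7.34% of all, 2 in Endoderm+SB HEB, against 6.19%, 4 in Endoderm HEB, against 5.89%, 6 in ESC SMAD2/3, against 7.32%, 7 in ESC+SB HEB, against 6.56%, and 6 in ESC HEB, against 6.32%. In the upper 50% of each list by tag enrichment they were 5 of 10 in Endoderm SMAD2/3, against 9.86%, 2 in Endoderm+SB HEB, against 8.08%, 5 in Endoderm HEB, against 11.6%, 3 in ESC SMAD2/3, against 3.36%, 7 in ESC+SB HEB, against 12.5%, and 8 in ESC HEB, against 11.6%. A gene was listed when a region lay in it or within 1 kb of it.

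**Figure D1:**
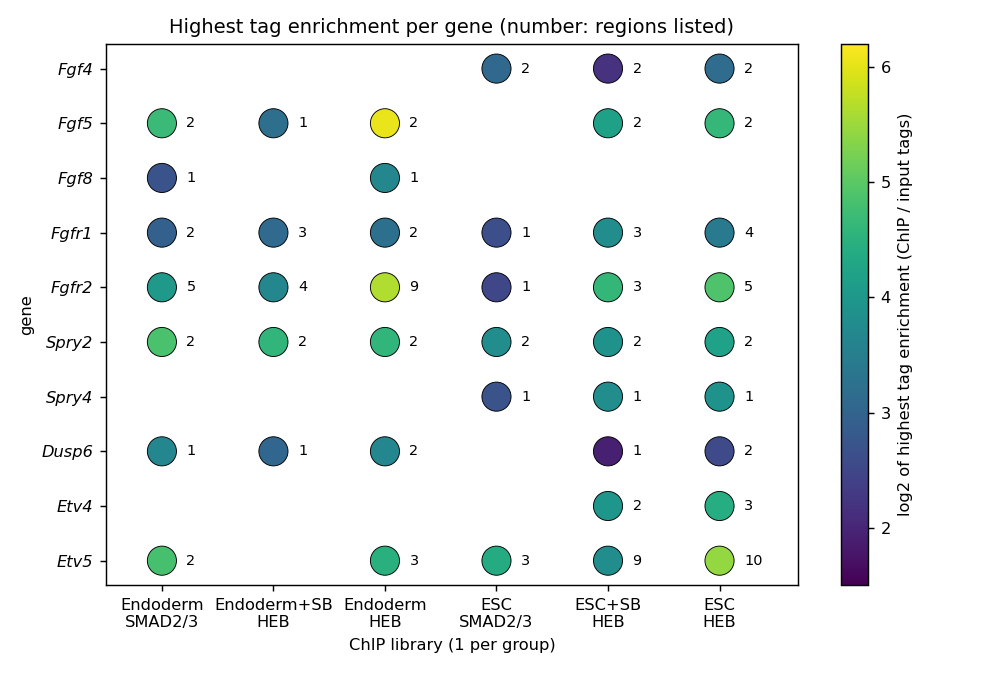
Each circle is a gene (rows) listed with at least 1 region in a ChIP library (columns, 1 library per group), coloured by the log2 of its highest tag enrichment, the ratio of ChIP to input tags in a region, with the number of its regions beside it. Fgfr1, Fgfr2 and Spry2 have a circle in all 6 columns, Fgf4 and Spry4 in the 3 ESC columns only, and Fgf8 in 2 endoderm columns only.

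Of the 10 genes, 4 were listed in 1 cell state only and 6 in both, and these shares were not counted over all genes. Fgf4 and Spry4 were listed in all 3 ESC lists and in none of the endoderm lists, and Etv4 in ESC+SB HEB and ESC HEB only. Fgf8 was listed in Endoderm SMAD2/3 and Endoderm HEB only. Fgf5 and Dusp6 were listed in every list but ESC SMAD2/3, and Etv5 in every list but Endoderm+SB HEB. Joined by an overlap of at least 1 bp, the regions formed 42 sites. Of these, 11 were held by endoderm lists only, against 44.2% of all 22459 sites with a gene listed, 18 by ESC lists only, against 31.2%, and 13 by lists of both states, against 24.7%. A single list held 13 sites, against 47.3%, and all 6 lists held 3 sites, against 1.51%, 1 each at Fgfr1, Fgfr2 and Spry2. Of the 29 sites in at least 2 lists, 22 had all their summits within 100 bp. That share was not counted over all sites, so it is not shown to be particular to these genes. A region that is not listed may still carry signal below the authors' threshold. The smallest ChIP height, the authors' signal at a region's summit, was 25.0 in 5 lists and 28 in ESC+SB HEB. In bulk chromatin, fewer bound cells and less binding per cell cannot be told apart.

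The libraries differed in size and in markers. The lists held between 4111 (ESC SMAD2/3) and 18981 (Endoderm HEB) regions, with 933126 and 5051930 ChIP tags in them, and the depth of the libraries is unknown. Binding at marker genes is not expression and only partly separates the cells. Of 6 endoderm markers (Sox17, Foxa2, Gata6, Cer1, Eomes and Gsc), regions were listed for 5 in Endoderm SMAD2/3, 2 in Endoderm+SB HEB, 6 in Endoderm HEB, 0 in ESC SMAD2/3, 5 in ESC+SB HEB and 5 in ESC HEB. Of 4 pluripotency markers (Pou5f1, Nanog, Sox2 and Esrrb), regions were listed for 2 in Endoderm+SB HEB, 3 in ESC SMAD2/3 and all 4 in each of the other lists. Whether the SB-treated differentiating cells were endoderm was not tested. With SB, a change in the cells and a change in binding cannot be told apart. Here, a value with SB in endoderm means only that it comes from the Endoderm+SB HEB library.

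Fgf5, a ligand of the epiblast, had the highest HEB tag enrichment of the 10 genes, at a site inside the gene, chr5:98684617-98685464 (mm9), with summits 1721 to 1755 bp from its 5′ end. The ChIP height there was 126 in Endoderm SMAD2/3, 25.0 in Endoderm+SB HEB, 338 in Endoderm HEB, 58.6 in ESC+SB HEB and 85.8 in ESC HEB, and the site was not listed in ESC SMAD2/3. The Endoderm HEB height was above 99.3% of its list, and the Endoderm+SB HEB height was almost at its list's minimum, above 0.276% of regions. ChIP tags over input tags were 799 over 31 in Endoderm SMAD2/3, 174 over 19 in Endoderm+SB HEB, 1985 over 30 in Endoderm HEB, 400 over 22 in ESC+SB HEB and 648 over 26 in ESC HEB. The tag enrichment was thus 25.8 in Endoderm SMAD2/3, 9.16 in Endoderm+SB HEB, 66.2 in Endoderm HEB, 18.2 in ESC+SB HEB and 24.9 in ESC HEB. Its exact 95% interval, from counting error alone, was 5.69 to 15.6 in Endoderm+SB HEB and 46.2 to 98.3 in Endoderm HEB. HEB was highest in untreated endoderm, with a height 3.93 times that of untreated ESCs and a summit at nearly the same base. A lower site over the 5′ end, chr5:98682703-98684060, had heights of 42.9 in Endoderm SMAD2/3, 66.6 in Endoderm HEB, 33.3 in ESC+SB HEB and 30.9 in ESC HEB. It was not listed in Endoderm+SB HEB or in ESC SMAD2/3.

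Fgf4, the main FGF of pluripotent cells, was listed in ESCs only, at 2 sites. At its 5′ end, chr7:152046784-152048378 (mm9), the heights were 47.7 in ESC SMAD2/3, 45.9 in ESC+SB HEB and 27.2 in ESC HEB, and the tag enrichments were 5 in ESC SMAD2/3, 3.12 in ESC+SB HEB and 3.40 in ESC HEB. These heights were above 75.6% of the ESC SMAD2/3 list, 61.7% of ESC+SB HEB and 13.8% of ESC HEB. The tag enrichments ranked lower, above 23.8% of ESC SMAD2/3, 6.67% of ESC+SB HEB and 3.38% of ESC HEB. At chr7:152050036-152050928, 3099 to 3358 bp from the 5′ end, the heights were close to the list minima. They were 25.5 in ESC SMAD2/3, 28.7 in ESC+SB HEB and 26.1 in ESC HEB. Fgf8, the ligand of the streak, was listed in endoderm only. By height, its Endoderm SMAD2/3 region was above 63.9% of that list, and its Endoderm HEB region above 42.4%. By tag enrichment, the Endoderm SMAD2/3 region was above 23.1% and the Endoderm HEB region above 50.8%. An Endoderm SMAD2/3 region at chr19:45809071-45810441, 848 bp outside the gene, had a height of 39.9, and the Endoderm HEB region that overlaps it had 40.0 but carried no gene name. An Endoderm HEB region inside the gene, chr19:45811591-45812302, had a height of 35.8.

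Near the ligands lay further regions that were not listed for any gene, and the highest near Fgf8 (Endoderm SMAD2/3) and near Fgf4 (ESC HEB) were several times higher than the regions listed for these genes in the same library. They were looked for within 50 kb of the stretch that holds a gene's listed regions, a distance chosen after the data were seen, and nearness does not assign a region to a gene. With its summit at -3285 bp from the Fgf8 5′ end, at chr19:45819672-45821187, an Endoderm SMAD2/3 region had 3539 ChIP tags over 56 input tags and a height of 828, above 99.9% of its list. Regions overlapping it had heights of 221 in Endoderm HEB and 47.4 in ESC SMAD2/3. On the other side of the Fgf8 5′ end, summits 9046 and 9062 bp away had heights of 360.3 in Endoderm SMAD2/3 and 247 in Endoderm HEB. No such region was listed near Fgf8 in Endoderm+SB HEB, ESC+SB HEB or ESC HEB. Downstream of the Fgf5 5′ end, a site 29673 bp away had heights of 120.0 in Endoderm SMAD2/3 and 456 in Endoderm HEB and was listed in no other library. The next, 39312 to 39471 bp away, had 99.2 in Endoderm SMAD2/3, 128 in Endoderm+SB HEB and 301 in Endoderm HEB. Unassigned regions were not counted around all genes, so their numbers are not shown to be particular to a gene. Around Fgf4, 2 such regions were listed in Endoderm HEB and 1 in Endoderm+SB HEB. More were listed in ESCs, with 6 in ESC SMAD2/3, 9 in ESC+SB HEB and 8 in ESC HEB. The highest, 27382 to 27766 bp downstream, had heights of 72.9 in Endoderm HEB, 71.4 in ESC SMAD2/3, 196 in ESC+SB HEB and 315 in ESC HEB. This site, at chr7:152074440-152075437 in ESC HEB, lies nearer to the 5′ end of another ligand gene, Fgf15, than to that of Fgf4. A region listed for Fgf15 in ESC SMAD2/3, chr7:152087830-152088185, was 5393 bp from the Fgf15 5′ end.

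**Figure D2:**
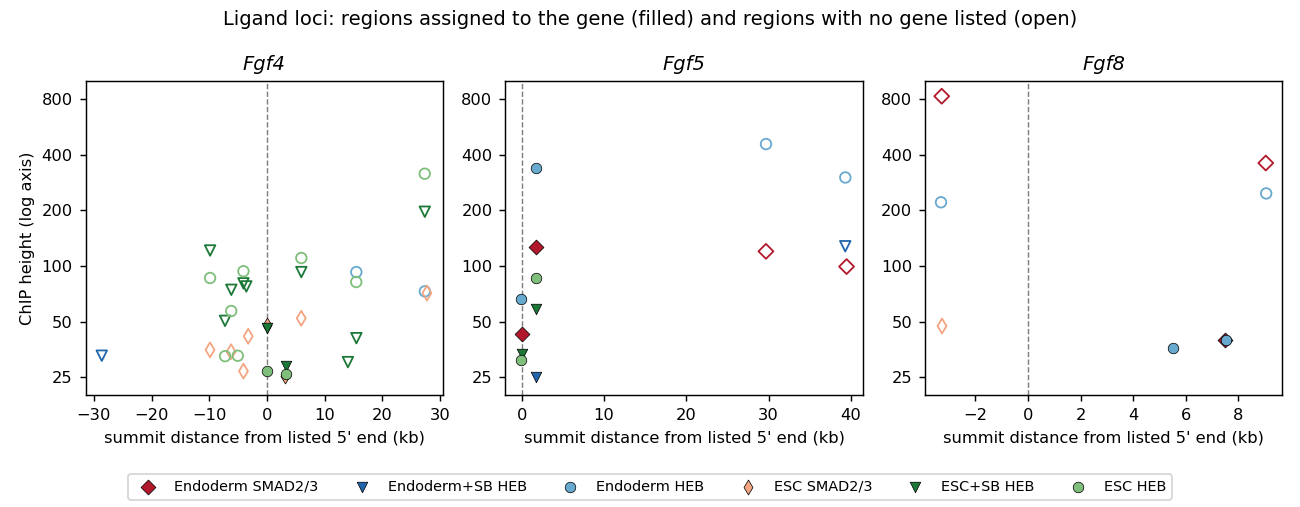
ChIP height (log axis) of each region against the distance of its summit from the gene's listed 5′ end in kb (dashed line), in the direction of transcription, for the 3 ligands. Filled symbols are regions the authors list for the gene and open symbols are regions within 50 kb of these with no gene listed. The open Endoderm SMAD2/3 diamond at 828 upstream of Fgf8 and the open Endoderm HEB circle at 456 downstream of Fgf5 stand above every filled symbol in their panels.

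Fgfr2, a receptor for several FGFs, carried 12 sites, the second most after Etv5. Of them 7 were held by endoderm lists only, against 44.2% of all sites with a gene listed. Fgfr2 is the longest of the 10 genes, at 104358 bp, and Etv5 the next, at 58258 bp. Longer genes have more room for sites, and site counts were not adjusted for length. A site 14442 to 14450 bp inside the gene, chr7:137395063-137396251 (mm9), was listed in all 6 libraries. Its heights were 37.2 in Endoderm SMAD2/3, 28.9 in Endoderm+SB HEB, 301 in Endoderm HEB, 33.7 in ESC SMAD2/3, 315 in ESC+SB HEB and 388 in ESC HEB. HEB was high there in both untreated states and in SB-treated ESCs, and low in SB-treated differentiating cells. In the latter, 100 ChIP tags over 10 input tags were counted, against 1360 over 30 in Endoderm HEB. SMAD2/3 was near the middle of its list in both states, above 57.7% of regions in endoderm and 48.0% in ESCs. A site 7996 to 8039 bp inside, chr7:137401674-137402702, was held by endoderm lists only, with heights of 55.6 in Endoderm SMAD2/3, 43.6 in Endoderm+SB HEB and 239.8 in Endoderm HEB. At 29722 to 29726 bp inside, the heights were 191 in Endoderm HEB, 51.2 in ESC+SB HEB and 61.1 in ESC HEB. A region 57117 bp inside had a height of 135 and was listed in Endoderm HEB only. Nearer the 5′ end the picture differed, with heights of 35.3 in Endoderm SMAD2/3, 75.9 in Endoderm+SB HEB, 71.4 in Endoderm HEB and 29.8 in ESC HEB at chr7:137407083-137409310. At chr7:137409462-137410226, 348 to 362 bp from the 5′ end, they were 38.1 in Endoderm SMAD2/3, 35.2 in Endoderm+SB HEB and 44.3 in Endoderm HEB. A site 13362 to 13394 bp inside was held by HEB in ESCs only, at 88.0 in ESC+SB HEB and 97.5 in ESC HEB. The 5 sites in a single list each, other than the one at 135, had heights from 30.4 to 45.1.

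Fgfr1, the receptor that carries most FGF4 signal in ESCs, had a narrower range. Over its 5′ end, chr8:26629034-26630508, the heights were 33.5 in Endoderm SMAD2/3, 34.1 in Endoderm+SB HEB, 31.9 in Endoderm HEB, 52.1 in ESC+SB HEB and 30.9 in ESC HEB. At 24696 to 24912 bp inside, chr8:26653337-26654523, all 6 libraries had a region, with heights of 30.2 in Endoderm SMAD2/3, 29.5 in Endoderm+SB HEB, 30.9 in Endoderm HEB, 35.0 in ESC SMAD2/3, 99.2 in ESC+SB HEB and 79.2 in ESC HEB. HEB was thus higher in ESCs than in endoderm at this site, with or without SB. SMAD2/3 was above 33.3% of its list in endoderm and 51.9% in ESCs. A site 26320 to 26353 bp inside was held by HEB only, with heights of 39.5 in Endoderm+SB HEB, 56.2 in ESC+SB HEB and 55.0 in ESC HEB.

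Spry2, a Sprouty protein that inhibits receptor tyrosine kinase signalling, was listed in all 6 libraries at its upstream site. That site, chr14:106296194-106297428, had heights of 76.5 in Endoderm SMAD2/3, 54.3 and 32.0 in 2 regions of Endoderm+SB HEB, 65.1 in Endoderm HEB, 35.1 and 29.7 in 2 regions of ESC SMAD2/3, 53.8 in ESC+SB HEB and 54.8 in ESC HEB. The 4 HEB maxima lay between 53.8 and 65.1, a narrow range, while SMAD2/3 was 2.18 times as high in endoderm as in ESCs. The site inside the gene, chr14:106293999-106294671, had heights of 40.9 in Endoderm SMAD2/3, 74.1 in Endoderm HEB, 47.3 in ESC+SB HEB and 34.2 in ESC HEB, and was not listed in Endoderm+SB HEB or ESC SMAD2/3. Spry4, its paralog on chromosome 18, had 1 site, over its 5′ end and listed in ESCs only. The heights were 37.2 in ESC SMAD2/3, 201 in ESC+SB HEB and 159.8 in ESC HEB, which put both HEB values above 96.5% of their lists.

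Dusp6, the cytoplasmic phosphatase of ERK, had its highest HEB region in untreated endoderm. The regions spanned chr10:98723660-98726891 (mm9), over and upstream of the 5′ end, in 2 groups of summits. In the group at -195 to -176 bp from the 5′ end, the HEB heights were 36.9 in Endoderm+SB HEB, 136 in Endoderm HEB, 30.1 in ESC+SB HEB and 25.3 in ESC HEB. The ratio of Endoderm HEB to ESC HEB heights, 5.38, was above 98.5% of all matched regions. Its ESC HEB height was almost at its list's minimum, above 2.07% of regions. Other measures were less far apart. The tag enrichment was 12.6 in Endoderm HEB and 5.88 in ESC HEB, and the tags per kb were 506 and 276. Farther upstream, summits at -1996 to -1330 bp had heights of 87.8 in Endoderm SMAD2/3, 44.4 in Endoderm HEB and 32.2 in ESC HEB. The Endoderm SMAD2/3 region, with 1329 ChIP tags over 106 input tags, covered both groups, and no ESC SMAD2/3 region was listed for Dusp6.

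Etv5, an ETS factor induced by ERK, had 13 sites, 9 of them in ESC lists only, against 31.2% of all sites with a gene listed. At most of them HEB was listed without SMAD2/3, against 65% of all sites. Its site 33226 to 33380 bp inside, chr16:22405900-22406608, had the highest SMAD2/3 heights of the 10 genes in both states. They were 130.1 in Endoderm SMAD2/3 and 103 in ESC SMAD2/3, against HEB heights of 65.9 in Endoderm HEB, 52.4 in ESC+SB HEB and 92.6 in ESC HEB. The site at 36721 to 36752 bp, chr16:22402599-22403283, leaned to HEB, with 75.2 in Endoderm HEB, 39.2 in ESC SMAD2/3, 90.6 in ESC+SB HEB and 114 in ESC HEB. At 35650 bp, chr16:22403744-22404211, HEB was listed in ESCs only, with heights of 37.5 in ESC+SB HEB and 101 in ESC HEB. A site 30387 bp inside had heights of 34.7 in ESC SMAD2/3 and 45.6 in ESC HEB. Another 5 sites were held by both ESC+SB HEB and ESC HEB, with heights from 28.5 to 50.5. The region over the 5′ end was listed in Endoderm HEB only, with a height of 25.8. Regions at 38346 bp in ESC HEB (26.4) and at 971 bp in ESC+SB HEB (30.4) were also in 1 list each. Etv4, its paralog, had 3 sites, all with HEB in ESCs and none with SMAD2/3. The highest, 12554 to 12571 bp inside at chr11:101633758-101634240, had heights of 107 in ESC+SB HEB and 77.2 in ESC HEB, and the others lay between 28.7 and 29.1.

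**Figure D3:**
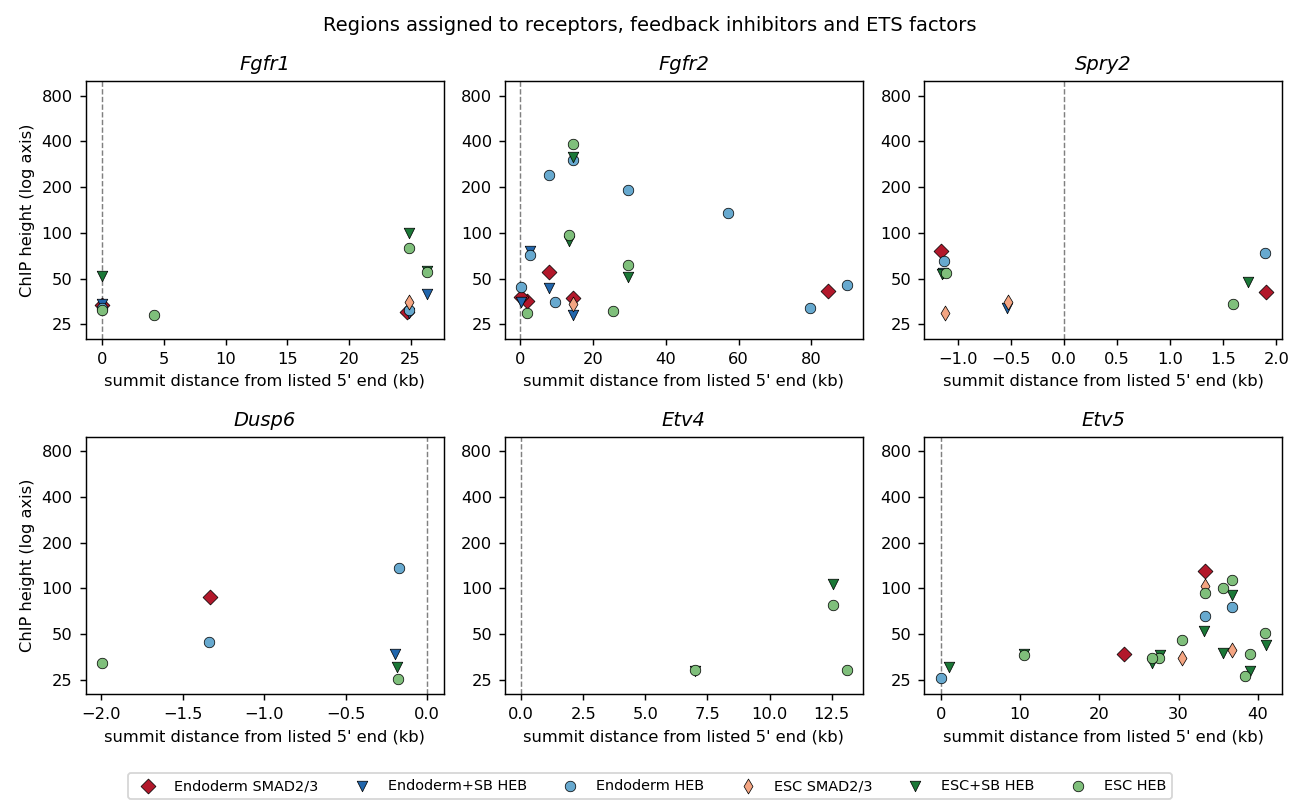
ChIP height (log axis) of every region listed for the receptors, feedback inhibitors with a distance and ETS factors, against the distance of its summit from the gene's listed 5′ end in kb (dashed line) in the direction of transcription. Each symbol is 1 region in 1 library. In the Fgfr2 panel the Endoderm HEB circles at 301, 239.8, 191 and 135 stand above every SMAD2/3 symbol, and the Etv5 panel shows 10 of its 13 sites between 23112 and 41024 bp from the 5′ end.

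Where SMAD2/3 bound these genes, HEB of the same cells was mostly listed too. Of the 15 Endoderm SMAD2/3 regions of the 10 genes, 13 overlapped an Endoderm HEB region, against 55.9% of all 6777 such regions with a gene listed. In the upper 50% of each list 5 of 8 did so, and 4 of 6 with the lists cut to equal length. The shares over all regions were not counted under these 2 settings. In ESCs, 10 of 10 SMAD2/3 regions overlapped ESC HEB, against 81%, and 6 of 10 did so with the lists cut to equal length. The exact 95% intervals, which treat regions as independent although several share a gene, were 59.5 to 98.3% and 69.2 to 100%. Taken the other way, 13 of 21 Endoderm HEB regions overlapped Endoderm SMAD2/3, against 38.1%, and 9 of 31 ESC HEB regions overlapped ESC SMAD2/3, against 18.1%. The 2 Endoderm SMAD2/3 regions without HEB were at Fgfr2, 84587 bp inside, and at Etv5, 23112 bp inside, with heights of 41.7 and 36.7. Over all 42 sites, 22 had HEB in at least 1 list and SMAD2/3 in none, against 65% of all sites with a gene listed, and 2 had SMAD2/3 without HEB, against 8.22%. The highest Endoderm HEB regions without SMAD2/3 were those of Fgfr2 at 191 and 135, and the highest in ESC HEB was that of Etv5 at 101. SMAD2/3 and HEB libraries of the same cells appear to share an input, since their input tag counts were identical in 81.4% of 177 endoderm and 87% of 100 ESC region pairs with edges within 10 bp.

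Between cell states, 13 of 21 Endoderm HEB regions overlapped an ESC HEB region, against 32.8% of all, and 13 of 31 ESC HEB regions overlapped Endoderm HEB, against 34.6%. At the 13 shared regions the ratio of heights, endoderm over ESC, had a median of 1.38, against 0.970 over 3292 matched regions with a gene listed. The ratio was at least 2 for 6 of the 13 regions, against 9.69% of all, and 0.5 or less for 1, against 11.9%. The 6 were at Dusp6 (5.38), Fgf5 (3.93 inside the gene and 2.16 at its 5′ end), Fgfr2 (3.12 and 2.40) and Spry2 (2.17), and the 1 was at Fgfr1 (0.390). These counts are by height and were not repeated by tag enrichment. By tag enrichment in place of height the median was 1.47, against 1.21 over all matched regions, so the 2 medians lay closer. By tags per kb it was 1.63, against 0.951. With the lists cut to equal length by tag enrichment, the median height ratio turned to 0.982, against 1.10 over 306 matched regions. For SMAD2/3, 4 of 15 endoderm regions overlapped an ESC region, against 13.8%, and 5 of 10 ESC regions overlapped an endoderm region, against 44.2%. The 4 ratios, endoderm over ESC, were 2.18 at Spry2, 1.26 at Etv5, 1.10 at Fgfr2 and 0.863 at Fgfr1, with a median of 1.18 against 1.32 over 933 regions. Of them 1 was at least 2, against 22.6%, and 0 were 0.5 or less, against 4.29%.

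In ESCs, 24 of 25 ESC+SB HEB regions overlapped an ESC HEB region, against 70.9%, and 24 of 31 ESC HEB regions overlapped ESC+SB HEB, against 77.4%, so the share still listed with SB was that of all regions. The 7 without an ESC+SB HEB region had heights from 26.4 to 45.6, at Etv5, Fgfr1, Fgfr2, Dusp6 and Etv4, with a median of 29.8 against 37.6 over the ESC HEB list. The one at 45.6, at Etv5, was above 64.1% of that list. In endoderm, 10 of 11 Endoderm+SB HEB regions overlapped Endoderm HEB, against 47%, and 9 of 21 Endoderm HEB regions overlapped Endoderm+SB HEB, against 29.8%, an all-region share that lies inside the exact 95% interval of 21.8 to 66.0% for these genes. The 12 without one had heights from 25.8 to 191 and lay at Fgfr2 (5), Etv5 (3), Fgf5, Fgf8, Spry2 and Dusp6 (1 each). The Endoderm+SB HEB list is also the shorter one, with 10147 regions against 18981 in Endoderm HEB. How far that list's length sets the count was not tested.

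At regions listed in both libraries, the ratio of heights with SB over without had a median of 0.643 in endoderm (10 regions), against 0.946 over 2988 matched regions, and of 1.01 in ESCs (24 regions), against 1.10 over 7300. With the lists cut to equal length only 2 endoderm regions were left, both at the upstream Spry2 site. Their median was 0.663, against 0.549 over 346 regions, and it does not speak for the other genes. The ESC median was below 1 under 5 other settings, at 0.764 by tag enrichment, against 0.862 for all regions, 0.837 at equal length, against 0.925, 0.843 by tags per kb, against 0.962, 0.902 in the upper 50%, against 0.976, and 0.982 with heights of at least the ESC+SB HEB minimum, against 1.06. The ratio was 0.5 or less for 5 of the 10 endoderm regions, against 15%, and at least 2 for 0, against 3.98%. In ESCs it was 0.5 or less for 1 of 24, against 2.27%, and at least 2 for 0, against 0.37%. The 5 in endoderm were at Fgf5 (0.0742), Fgfr2 (0.0962 and 0.182), Dusp6 (0.272) and the smaller of the pair of Spry2 regions (0.491). Both Spry2 regions were matched to the same Endoderm HEB region, and the larger had a ratio of 0.834. The 1 in ESCs was at Etv5 (0.371). The Fgf5 ratio was above 0.234% of all matched endoderm regions, and the Fgfr2 ratio of 0.0962 above 0.435%. At 6 sites both ratios could be given. With SB over without, these were 0.0742 in endoderm and 0.683 in ESCs at Fgf5, 0.0962 in endoderm and 0.812 in ESCs at Fgfr2, and 0.272 in endoderm and 1.19 in ESCs at Dusp6. They were 0.834 in endoderm and 0.982 in ESCs at Spry2, 0.955 in endoderm and 1.25 in ESCs at the Fgfr1 site farther inside the gene, and 1.07 in endoderm and 1.69 in ESCs at the Fgfr1 5′ end. At Dusp6 the ESC heights, 30.1 with SB and 25.3 without, were close to their list minima. The ratio was lower in endoderm than in ESCs at all 6, and so was the median over all matched regions (0.946 and 1.10). By rank among all matched regions of its pair, Spry2 went the other way, above 37.2% in endoderm and 34.4% in ESCs. How many of all sites have a lower ratio in endoderm was not counted. The 6 sites came from the same 4 libraries, with SB for 48 h in differentiating cells and 24 h in ESCs. The sources used here do not give the scaling of heights, so each ratio is read beside the median over all matched regions of its own pair.

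**Figure D4:**
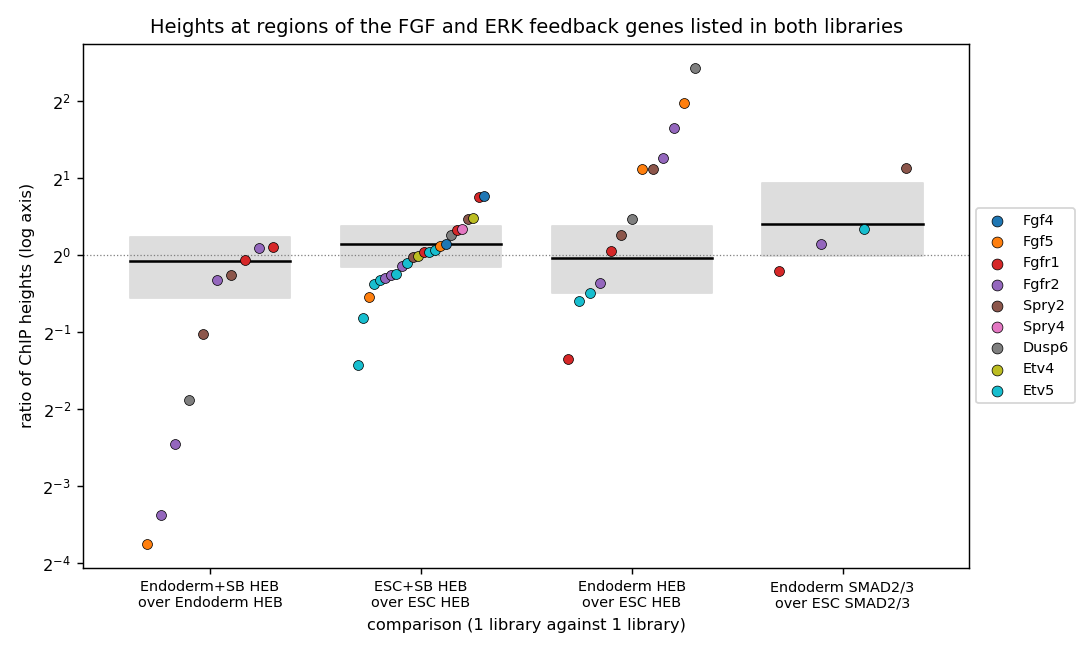
Each point is 1 region of the FGF and ERK feedback genes listed in both libraries of a comparison, placed by the ratio of its ChIP heights (log axis) and coloured by gene. Black lines are medians and grey boxes the 25th to 75th percentiles over all matched regions with a gene listed. In the Endoderm+SB HEB over Endoderm HEB column the points run down to 0.0742 (Fgf5), while in ESCs they lie between 0.371 and 1.69.

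Other genes of the pathway were counted from a list of 57. Regions were listed for 27 of them in Endoderm SMAD2/3, 22 in Endoderm+SB HEB, 28 in Endoderm HEB, 11 in ESC SMAD2/3, 32 in ESC+SB HEB and 27 in ESC HEB, to be set beside the shares of all protein-coding genes given above for each list. The highest tag enrichments were at Fgf10, a ligand of limb and lung development, with 59.2 in Endoderm SMAD2/3 and 57.5 in Endoderm HEB, and at Il17rd (also called Sef), an inhibitor of FGF signalling, with 39.1 in Endoderm SMAD2/3 and 31.8 in Endoderm HEB. The others among the highest 3 were Fgf1 (32.9) in Endoderm SMAD2/3, Flrt3 (18), Fgf12 (16.4) and Il17rd (15.5) in Endoderm+SB HEB, and Fgf14 (35.3) in Endoderm HEB. In ESCs they were Fgf17 (20.5), Fgf15 (19.7) and Etv1 (16.3) for SMAD2/3, Fgf1 (19.8), Fgf16 (17.5) and Spred2 (16.6) for ESC+SB HEB, and Spred2 (33.8), Fgf17 (25.7) and Fgf1 (18.7) for ESC HEB. Spred2 encodes an inhibitor of RAS and RAF signalling.

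Genes whose profile over the 6 lists was most like that of a member were found by the Euclidean distance between values of log2(1 + highest tag enrichment) per list, among genes listed in the same libraries. Nearest to Fgf5 were 5033414K04Rik, at a distance of 0.617, and Prdm6, at 1.00, among 980 candidates. The Endoderm HEB enrichment was 72.6 at 5033414K04Rik, against 12.7 with SB. Nearest to Etv5 was Igsf21 (0.308, 172 candidates), to Fgfr2 St6galnac3 (0.595, 658 candidates) and to Spry2 Pde4d (0.648, 658 candidates). Nearest to Fgfr1 was Irak2 (0.344), to Dusp6 Tpm3 (0.408), to Fgf4 Rufy1 (0.266) and to Spry4 Myh13 (0.224). These distances rest on 3 to 6 libraries each.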

How the data were processed

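ChIP-seq libraries of HEB and SMAD2/3 from ESCs and endoderm were analysed, 1 per group in 6 groups, and the 4 input libraries entered only as background columns. Regions are on mm9 and CASAVA 1.8.2 was used, per the submitters' processing notes. Which aligner, which peak caller and which annotation were used was not given in the sources used here. Per the file headers, the authors deposited, for each region, counts of ChIP and background tags, the ratio of the tag counts, and the height of the ChIP signal. A deposited score headed as a q-value was not used. The ratio was the quotient of the 2 counts in 83.6% to 97.9% of regions, and differed from it in the others. Coordinates are printed as deposited.

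Regions were compared by an overlap of at least 1 bp in Python 3.11.15 (pandas 2.3.3, scipy 1.17.1), with ratios of heights taken at overlapping regions. Overlap counting was tested on simulated lists, and gave the same overlaps as bedtools 2.31.1 for all 30 ordered pairs of lists. All 10 genes are named, a site in full when 2 or more lists held it or it was a gene's highest, and for the other pathway genes the 3 of highest tag enrichment per list. Distances to a 5′ end were worked out from the listed distances, and exons and introns were not annotated. Genes and lists were chosen with earlier results of these data known. Intervals are exact Clopper-Pearson at 95% and cover counting error only. Other thresholds, overlap rules and measures were tried.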

Additional observations from a re-analysis of the deposited data

Results flagged for a closer look

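At 2 of the 6 sites with an SB ratio in both states, the ratio was below 1 in endoderm and above 1 in ESCs. At the Dusp6 5′ end the height with SB was 0.272 times that without in endoderm and 1.19 times in ESCs, a difference of -2.13 on the log2 scale (endoderm minus ESCs). When the highest region of each list at that site is used instead, overlapping or not, the ESC ratio is 0.936 and both ratios are below 1. The tag enrichments of the matched regions were 8.34 with SB and 12.6 without in endoderm. In ESCs they were 3.78 with SB and 5.88 without, so by this measure both states were lower with SB. The ESC heights, 30.1 with SB and 25.3 without, were also close to the list minima of 28 and 25.0. At the Fgfr1 site 24696 to 24912 bp inside the gene, the ratios were 0.955 in endoderm and 1.25 in ESCs, a difference of -0.39. Both lay above the median of all matched regions of their pair, 0.946 in endoderm and 1.10 in ESCs, so relative to these medians the directions did not differ. With 1 library per group, neither difference was tested.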

How the results depend on the processing

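No paired analysis was possible because each group held 1 library, and for the same reason no replicate could be left out. Of 84 values under other settings, 73 stayed close to the main value, which meant within 1.5 times for counts, within the exact interval for shares, and within 1.5 times and on the same side of 1 for median ratios. With the upper 50% of each list by tag enrichment, the genes listed were 2 of 10 in Endoderm+SB HEB and 3 of 10 in ESC SMAD2/3. With lists cut to equal length they were 2 of 10 in Endoderm+SB HEB and 4 of 10 in Endoderm HEB, the share of ESC SMAD2/3 regions overlapping ESC HEB was 60%, and the median height ratio of Endoderm HEB over ESC HEB was 0.982. The median ratio of ESC+SB HEB over ESC HEB was 0.902 in the upper 50%, 0.837 at equal length, 0.982 with heights of at least the ESC+SB HEB minimum, 0.764 by tag enrichment and 0.843 by tags per kb. The cause was not tested. Counting regions without a gene name as well, an alternative chosen after seeing the data, is among the 73. Depth is unknown, so a region missing from a list is not shown to be unbound.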

Other observations

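Regions with no gene listed also lay within 50 kb of the regions listed for the feedback inhibitors, Etv4 and Fgfr1. Around Spry2 they numbered 4 in Endoderm SMAD2/3, 2 in Endoderm+SB HEB, 3 in Endoderm HEB, 4 in ESC SMAD2/3, 8 in ESC+SB HEB and 7 in ESC HEB. The site upstream of Spry2, with summits at -24273 to -24155 bp, was listed in all 6, with heights of 65.9 in Endoderm SMAD2/3, 95.5 in Endoderm+SB HEB, 132 in Endoderm HEB, 28.9 in ESC SMAD2/3, 50.4 in ESC+SB HEB and 41.5 in ESC HEB. HEB was higher in endoderm there, while a site 37212 to 37234 bp on the other side had heights of 43.2 in ESC SMAD2/3, 159.9 in ESC+SB HEB and 148 in ESC HEB and was not listed in endoderm. Although Spry4 itself was listed in ESCs only, regions near it were listed in endoderm too, 3 in Endoderm SMAD2/3, 1 in Endoderm+SB HEB and 3 in Endoderm HEB, against 6 in ESC SMAD2/3, 10 in ESC+SB HEB and 8 in ESC HEB. The highest of the Endoderm HEB regions had a height of 181, with overlapping regions of 51.2 in Endoderm SMAD2/3, 54.2 in Endoderm+SB HEB and 30 in ESC HEB.

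Upstream of Fgfr1, with summits at -4268 to -4240 bp, HEB heights were 51.9 in Endoderm HEB, 258 in ESC+SB HEB and 254 in ESC HEB, above those of every region listed for Fgfr1 itself in the same list. A region 35728 bp downstream of the Dusp6 5′ end had a height of 94.4 in Endoderm+SB HEB, against 33.6 in Endoderm HEB, the opposite direction to the Dusp6 promoter. A region at -30649 bp from the Etv4 5′ end had a height of 132 and was listed in Endoderm HEB only. None of these regions is assigned to the gene it lies near, and the window was chosen after the data were seen. Regions with no gene listed were not counted around all genes, so their numbers per list have no comparison.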
